A study of Mus musculus with 4 samples.

Results

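Immediate-early genes are the first to be transcribed when a cell meets a growth factor, serum or stress. The 10 examined here were Fos, Fosb, Jun, Junb, Egr1, Ier2, Ier5, Atf3, Dusp1 and Myc, chosen by gene name. The choice was made with earlier results of these data known. All 10 had a row among the 12486 genes of the count table, and all 10 passed the filter on low counts, which left 11853 genes. Nascent transcription was measured by PRO-seq in mouse embryonic stem (mES) cells. In this assay isolated nuclei extend the RNA they were making with labelled nucleotides, so that the reads mark engaged RNA polymerase rather than stored mRNA.

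All 4 libraries came from cells with an auxin-inducible degron (AID) knocked in at the N terminus of Zfp574, in a parental line that expresses the auxin receptor OsTir1 from a transgene with an EF1a promoter, whose cassette also encodes ARF16-HA, a Myc epitope tag and mCherry. The line was derived from single selected clones of diploid mES cells of haploid origin and was grown without feeders in serum and LIF. Auxin (IAA) directs the tagged protein to the proteasome. The control group was 2 biological replicates without IAA (0 h), and the depletion group was 2 biological replicates after 6 h in 500 µM IAA. Untagged cells given IAA were not analysed here, so IAA itself and the loss of Zfp574 cannot be told apart.

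Immediate-early promoters are held ready, often with a paused polymerase, and respond within minutes without new protein synthesis. Serum response factor (SRF) with its partners of the Elk family, and CREB, bind many of them and relay signals from the ERK and cAMP pathways. Most members encode transcription factors that pass the signal to later genes, while Dusp1 encodes a phosphatase that switches MAP kinases off again. In mES cells grown with LIF, ERK signalling favours exit from the naive state and Myc supports self-renewal.

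Promoter sequences from RefSeq (GRCm38.p6, 250 bases before the start site to 50 after it) matched 7 of the 10 members, all but Egr1, Ier2 and Myc. Shown are those of the 4 Fos and Jun family genes, which hold both ends of the range of fold changes given below, and that of Dusp1, which alone carried a full CREB site. They are given 5′ to 3′ on the strand of the gene: Fos at chr12:85473640-85473939 (plus strand), Fosb at chr7:19309996-19310295 (minus), Jun at chr4:95052173-95052472 (minus), Junb at chr8:84978699-84978998 (minus) and Dusp1 at chr17:26508423-26508722 (minus). Capitals mark any match, on either strand, to the CREB site TGACGTCA, its core TGACG, the AP-1 site TGANTCA, the EGR site GCGNGGGCG, the SP1 site GGGCGG, the TATA box TATAAA or the CArG box, the SRF site. The core lies within the full CREB site, and the EGR and SP1 sites can overlap.
Fos: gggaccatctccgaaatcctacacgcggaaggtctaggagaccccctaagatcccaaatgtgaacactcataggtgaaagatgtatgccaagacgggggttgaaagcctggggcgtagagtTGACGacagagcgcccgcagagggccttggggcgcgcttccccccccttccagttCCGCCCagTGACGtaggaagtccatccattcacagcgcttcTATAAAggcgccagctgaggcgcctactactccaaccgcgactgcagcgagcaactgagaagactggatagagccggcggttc
Fosb: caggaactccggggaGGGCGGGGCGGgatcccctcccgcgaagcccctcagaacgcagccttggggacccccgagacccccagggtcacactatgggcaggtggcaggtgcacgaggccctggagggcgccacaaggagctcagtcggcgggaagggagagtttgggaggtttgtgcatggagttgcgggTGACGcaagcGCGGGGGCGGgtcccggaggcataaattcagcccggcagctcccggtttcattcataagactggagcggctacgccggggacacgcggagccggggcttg
Jun: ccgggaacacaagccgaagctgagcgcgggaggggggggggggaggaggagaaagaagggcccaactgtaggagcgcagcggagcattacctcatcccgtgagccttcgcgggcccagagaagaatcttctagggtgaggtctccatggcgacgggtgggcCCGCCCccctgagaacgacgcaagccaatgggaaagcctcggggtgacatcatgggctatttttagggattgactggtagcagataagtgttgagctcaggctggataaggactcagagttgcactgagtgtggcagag
Junb: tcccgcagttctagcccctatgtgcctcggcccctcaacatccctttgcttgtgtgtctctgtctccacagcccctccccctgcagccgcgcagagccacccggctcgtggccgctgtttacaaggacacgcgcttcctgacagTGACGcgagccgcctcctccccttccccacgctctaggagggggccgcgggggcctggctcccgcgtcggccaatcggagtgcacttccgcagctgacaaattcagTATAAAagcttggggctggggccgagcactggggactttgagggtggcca
Dusp1: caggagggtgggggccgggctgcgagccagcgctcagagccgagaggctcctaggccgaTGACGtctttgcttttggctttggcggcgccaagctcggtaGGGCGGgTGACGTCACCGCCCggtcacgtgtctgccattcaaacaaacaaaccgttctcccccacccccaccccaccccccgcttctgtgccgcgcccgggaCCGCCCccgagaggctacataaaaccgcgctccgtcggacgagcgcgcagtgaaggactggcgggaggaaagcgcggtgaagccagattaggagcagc

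The CREB core TGACG was found in 5 of the 7 promoters (Fos, Fosb, Junb, Atf3 and Dusp1), against 31.2% of the 11829 promoters of tested genes in the same table. The full CREB site was found in Dusp1 alone, against 3.19%. SP1 sites were found in 6 of 7 promoters (63.2% of all), the exception being Junb. The TATA box was found in Fos, from position -33, and in Junb, from position 1 of the RefSeq start site (6.98% of all). The EGR site was found in Fosb (10.7% of all). The CArG box (1.23% of all) and the AP-1 site (4.89% of all) were matched in none of the 7 windows, and Egr1 was not among these. Only exact matches within these windows were searched for, so sites elsewhere or of variant sequence are not covered. The promoters of Jun and Junb, the genes with the smallest adjusted p and the smallest fold change among the members, differed in each of the 3 motifs that either of them held. This pair was picked after its values were seen. Fos held all 3 of these motifs, with a log2 fold change of 0.41. Whether motifs bear on the changes was not tested.

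The libraries held 3298864 and 3616429 counts for the controls against 6045216 and 5670904 for depletion. Transcription of Zfp574 had 80 and 130 counts without IAA against 195 and 219 with it, a log2 fold change of 0.25 ± 0.14 (SE) (adjusted p 0.406). The degron removes the protein, so this value does not check its loss. Of 10 embryonic stem cell markers 9 were tested, with a summed level of 5027 to 5180 CPM across libraries. Of 8 fibroblast markers 1 (Thy1) had a row, with 3 to 9 counts per library, and of 11 markers of differentiated cells 3 were tested, with summed levels of 38.5 and 43.7 CPM before IAA and 45.4 and 48.4 CPM after 6 h.

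All values of the members are given as CPM, meaning counts for every 1000000 counts of library size after TMM scaling. All 10 members had a log2 fold change (depletion over control) above 0, between 0.06 for Junb and 0.81 for Fosb, as had 49.4% of all genes tested. Their median was 0.16, against -0.002 over all genes. At an adjusted p under 0.05 (edgeR's quasi-likelihood test, Benjamini-Hochberg adjustment), Jun and Egr1 rose, 2 of 10 members, against 1.11% of all genes tested. No member fell, against 1.40% of all genes. No member changed by 2-fold past this threshold, where 0 of all 11853 genes were higher and 38 were lower. The members' median was 0.06 with size factors recovered from the deposited mean signal, under which all genes had a median of -0.11, and 7 of 10 members were then above 0.

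**Figure D1:**
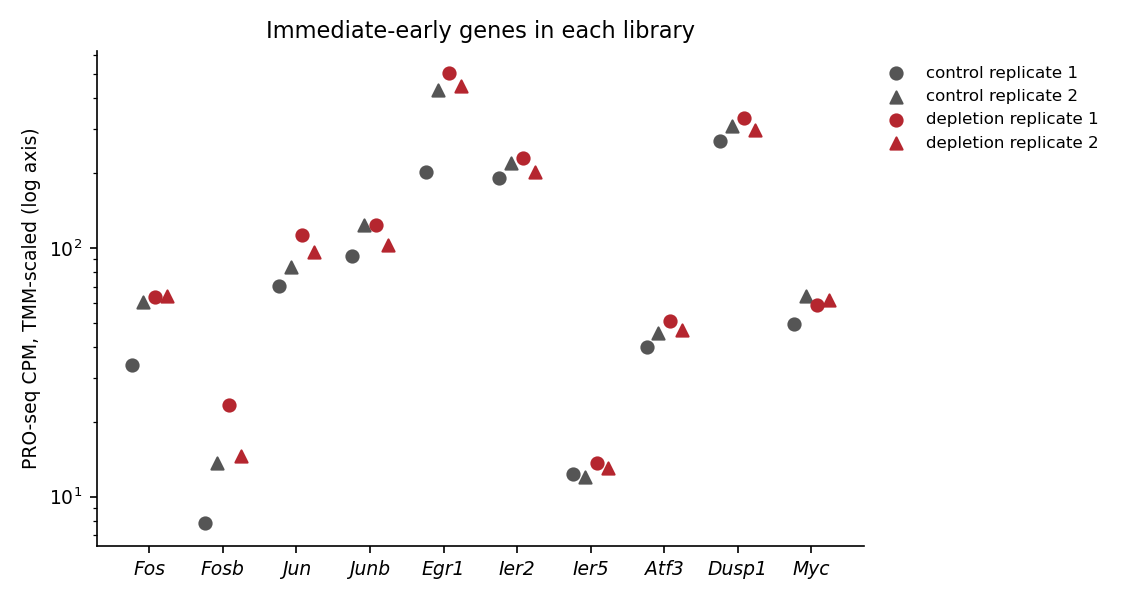
Level of each immediate-early gene in each library, in TMM-scaled CPM on a log axis, where grey points are control and red points depletion libraries, circles replicate 1 and triangles replicate 2. Control replicate 1 is the lowest point for 9 of the 10 genes and lies far below the other 3 libraries for Fos and Egr1.

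Among the genes of the AP-1 factors, which bind DNA as dimers of a Fos, Jun or ATF family protein, Jun was the one past the threshold. Jun, the founding Jun family partner (ENSMUSG00000052684, chromosome 4, 95049036 to 95052222, mm10), had 235 and 306 counts without IAA against 669 and 542 with it. These were 70.6 and 83.5 CPM against 112 and 96.5 CPM, so that both depletion libraries lay above both controls. Jun rose by 1.35-fold, a log2 fold change of 0.44 ± 0.09 (SE) (adjusted p 0.00558). The call was lost in DESeq2 with its own size factors (adjusted p 0.228), without control replicate 1 (0.32, adjusted p 0.0577) and without depletion replicate 1 (0.32, adjusted p 0.214).

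Junb, another Jun family gene, did not pass the test. It had 308 and 453 counts without IAA against 734 and 580 with it, or 92.6 and 124 CPM against 123 and 103 CPM. The groups overlapped, and control replicate 2 was the highest of the 4 libraries. Its log2 fold change was 0.06 ± 0.10 (SE) (adjusted p 0.815), and it turned to -0.04 with the recovered size factors.

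Fos, which needs a Jun partner to bind DNA (ENSMUSG00000021250, chromosome 12, 85473890 to 85477274), had 113 and 223 counts without IAA against 378 and 359 with it. Its levels were 33.96 and 60.86 CPM against 63.50 and 63.89 CPM. Control replicate 1 stood apart, while control replicate 2 lay just under the depletion libraries. The log2 fold change was 0.41 ± 0.14 (SE) and did not pass the threshold (adjusted p 0.117). Leaving out control replicate 1 gave 0.07, and leaving out control replicate 2 gave 0.91, where the adjusted p was 1.30e-07.

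Fosb, another Fos family gene that pairs with Jun proteins, had 26 and 50 counts without IAA against 139 and 82 with it. The levels were 7.81 and 13.65 CPM against 23.35 and 14.59 CPM, with a wide gap between the replicates of either condition. Its log2 fold change of 0.81 ± 0.23 (SE) was the largest among the members and just missed the threshold (adjusted p 0.0607). It was 0.43 without depletion replicate 1 and was 1.28 without control replicate 2.

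Atf3, a stress-induced partner of Jun proteins, had 133 and 167 counts without IAA against 304 and 262 with it. Both depletion libraries (51.1 and 46.6 CPM) lay above both controls (40.0 and 45.6 CPM), by little. The log2 fold change was 0.19 ± 0.11 (SE) (adjusted p 0.423).

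Egr1, a zinc-finger factor and a classical target of SRF and ERK (ENSMUSG00000038418, chromosome 18, 34861207 to 34864956), was the member with the most counts summed over the 4 libraries. It had 675 and 1579 counts without IAA against 3007 and 2531 with it, or 203 and 431 CPM against 505 and 450 CPM. Control replicate 2 was far closer to both depletion libraries than to control replicate 1. Egr1 rose by 1.498-fold in the fit, a log2 fold change of 0.58 ± 0.15 (SE) (adjusted p 0.0262).

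This value rested on which control was used. The depletion mean lay 1.24 above control replicate 1 and 0.15 above control replicate 2 on the log2 scale, and without control replicate 1 the call was lost (adjusted p 0.184). It was also lost without depletion replicate 1 (adjusted p 0.301), without depletion replicate 2 (adjusted p 0.137) and with library totals as scaling (adjusted p 0.0550). DESeq2 with its own size factors put the standard error at 0.53 and the adjusted p at 0.9996.

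Neither of the 2 Ier genes passed the test. Ier2, a short gene of the immediate-early response, had 636 and 805 counts without IAA against 1376 and 1142 with it. Its levels were 191 and 220 CPM against 231 and 203 CPM, the groups overlapped, and the log2 fold change was 0.08 ± 0.07 (SE) (adjusted p 0.640). Ier5 had 41 and 44 counts against 81 and 73, or 12.32 and 12.01 against 13.61 and 12.99 CPM. It was the one member in which control replicate 1 was not the lowest library, and its log2 fold change was 0.13 ± 0.19 (SE) (adjusted p 0.805).

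Dusp1, the dual-specificity phosphatase that inactivates MAP kinases, had 895 and 1134 counts without IAA against 1994 and 1675 with it. The levels were 269 and 310 CPM against 335 and 298 CPM. The groups overlapped, and the log2 fold change was 0.13 ± 0.07 (SE) (adjusted p 0.338). Without control replicate 2 it was 0.24 and passed the threshold (adjusted p 0.0192). In GENCODE M21 the gene overlaps 2 predicted genes on the same strand, and reads shared with these could not be told apart.

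Myc, which encodes a factor that raises growth and ribosome production, had 165 and 235 counts without IAA against 352 and 347 with it. It was at 49.6 and 64.1 CPM before IAA and 59.1 and 61.8 CPM after 6 h, between the 2 controls in both depletion libraries. Its log2 fold change was 0.08 ± 0.11 (SE) (adjusted p 0.775). The sign turned without control replicate 1 (-0.09) and with the recovered size factors (-0.02).

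**Figure D2:**
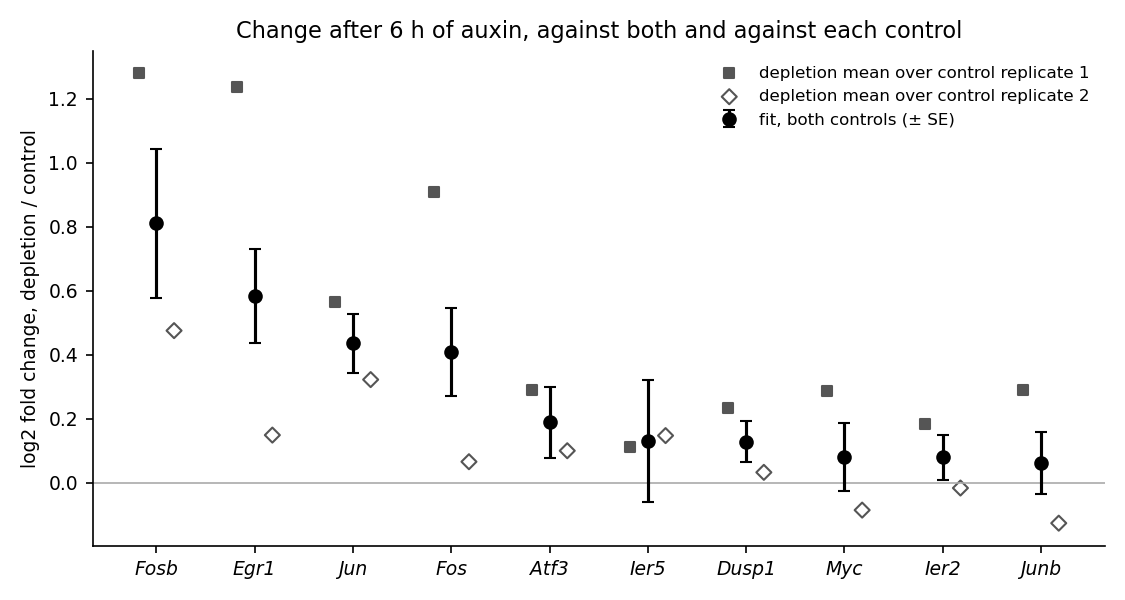
Log2 fold change of each immediate-early gene, depletion over control, ordered by size, where black points with bars are the fit on all 4 libraries ± its standard error, filled squares the depletion mean over control replicate 1 and open diamonds over control replicate 2. The squares of Fosb, Egr1 and Fos reach 1.28, 1.24 and 0.91, while their diamonds lie at 0.48, 0.15 and 0.07.

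Both depletion libraries lay above both controls in 6 of 10 members (Fos, Fosb, Jun, Egr1, Ier5 and Atf3), against 23.4% of all genes tested. Since the members were chosen with earlier results known, the share of all genes is given as a description only. This separation depended on the scaling, and with the recovered size factors it held for Jun alone, against 8.12% of all genes. Measured against control replicate 1, all 10 members were higher after depletion, with a median of 0.29 on the log2 scale. Against control replicate 2, 7 of 10 were higher and the median was 0.08. The medians of all genes against the same controls were -0.001 and 0.003, with 5908 and 6027 of the 11853 genes higher.

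The control replicates themselves differed in these genes. The members were chosen with earlier results of these data known, so the shares of all genes beside them describe and do not test. Control replicate 1 was the lowest of the 4 libraries in 9 of 10 members, against 28.4% of all genes tested, and in 10 of 10 with the recovered size factors, against 22.4%. The ratio of control replicate 2 to control replicate 1 had a median of 1.24 over the members and 1.00 over all genes. For 7 members the exact 95% interval of that ratio, which covers counting error only, lay above 1: Egr1, Fos, Fosb, Junb, Myc, Dusp1 and Ier2. The same was so for 4.20% of all genes, and 8.30% of all genes differed between the controls in either direction.

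Egr1 led, with a ratio of 2.12 (interval 1.94 to 2.33). Of the 8655 genes with at least 100 counts over both controls, Egr1 was the 1 gene whose controls differed by 2-fold or more in either direction. Fos followed with 1.79 (1.42 to 2.27), rank 14 among these genes by distance from 1, and Fosb, with too few counts for that ranking, had 1.75 (1.07 to 2.92). Junb had 1.34 (1.15 to 1.55) and Myc 1.29 (1.06 to 1.59). Dusp1 and Ier2 had smaller ratios of 1.15 each. The intervals of Jun (0.994 to 1.41), Atf3 (0.903 to 1.44) and Ier5 (0.622 to 1.53) included 1.

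**Figure D3:**
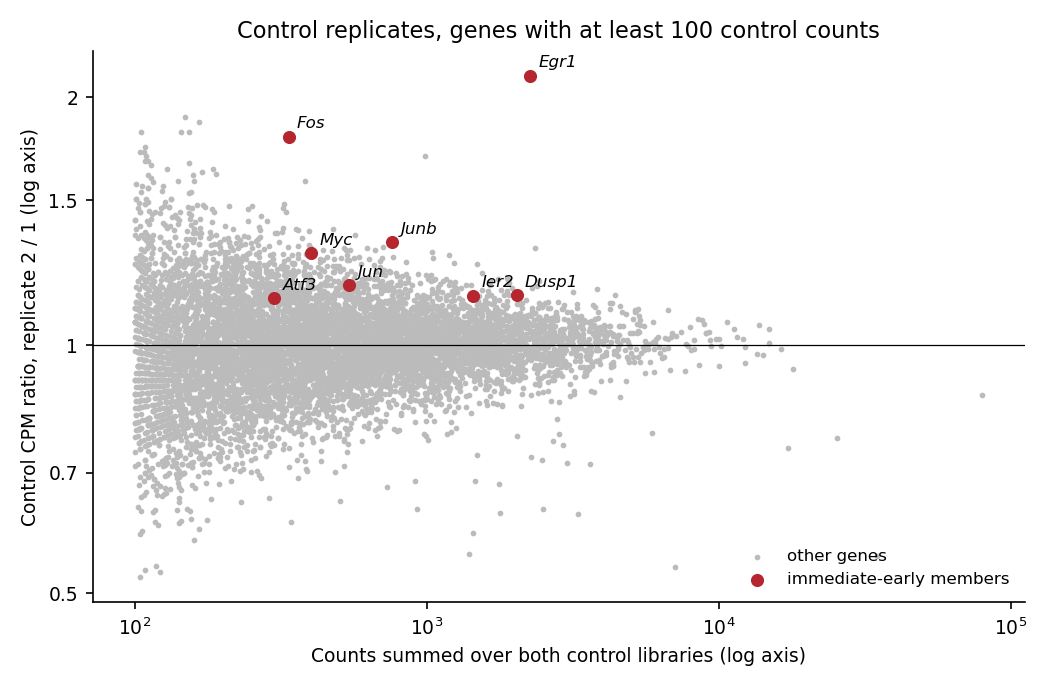
Ratio of CPM in control replicate 2 to control replicate 1 (log axis) against the counts summed over both controls (log axis), for the 8655 genes with at least 100 such counts, where red points are the 8 immediate-early genes among them and grey points the other genes. All 8 lie above 1, and Egr1 at 2.12 lies above every other gene.

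The depletion replicates were closer to each other, and differed the other way. The ratio of depletion replicate 2 to depletion replicate 1 had a median of 0.89 over the members, and its interval left out 1 for 6 members (Fosb, Jun, Junb, Egr1, Ier2 and Dusp1), against 7.85% of all genes tested. In all 6 depletion replicate 1 was the higher. The largest gap was that of Fosb, at 0.625 (0.470 to 0.827). Egr1 stood at 0.892 (0.845 to 0.940), Jun at 0.858 (0.765 to 0.963) and Fos at 1.01 (0.868 to 1.17).

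**Figure D4:**
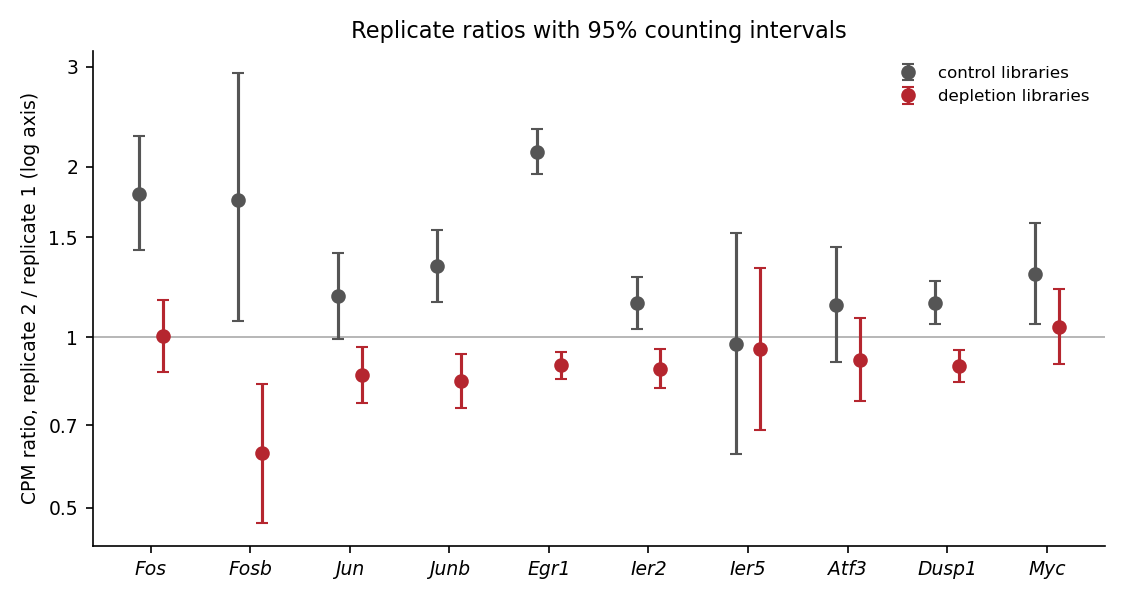
Ratio of replicate 2 to replicate 1 within each condition for each immediate-early gene, on a log axis, with exact 95% counting intervals, where grey points are the control and red points the depletion libraries. The control ratios of 7 genes lie above 1 with their intervals, and the depletion ratios of 6 genes lie below 1 with theirs.

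Summed over the 10 members, transcription was 970 CPM in control replicate 1 and 1364 CPM in control replicate 2. After depletion it was 1518 and 1351 CPM, so that control replicate 2 lay between the depletion libraries and only control replicate 1 stood below. Egr1 gave 20.9% of the members' counts in control replicate 1 and 31.6% in control replicate 2, against 33.3% in each depletion library. Without Egr1 the sums were 767 and 933 CPM before IAA and 1012 and 901 CPM after 6 h, with the same order of the libraries. Heat shock genes did not share this order: their summed levels were 1457 and 1508 CPM before IAA and 1399 and 1379 CPM after 6 h.

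Levels of different genes were compared per kilobase of the RefSeq gene, in CPM per kb ± SD over the 2 control libraries. Ier2 was highest at 135 ± 13.3, followed by Dusp1 at 100 ± 9.94, Egr1 at 84.5 ± 43.0 and Junb at 58.8 ± 11.9. Lower came Jun at 24.2 ± 2.86, Fos at 14.01 ± 5.62 and Myc at 11.3 ± 2.05, and last Ier5 at 3.72 ± 0.0676, Atf3 at 3.28 ± 0.304 and Fosb at 1.45 ± 0.556. Neighbours whose mean ± SD ranges overlapped were Dusp1 and Egr1, Egr1 and Junb, and Fos and Myc. After depletion Egr1, at 127 ± 10.3 CPM per kb, lay above Dusp1, at 110 ± 9.05 CPM per kb, again within their spread.

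These levels depend on the gene model. GENCODE M21 gives Dusp1 a span of 56.5 kb against 2.88 kb in RefSeq, and Atf3 47.7 kb against 13.0 kb, which would put their control levels at 5.12 and 0.896 CPM per kb. Junb and Egr1 would fall to 25.5 and 61.4 CPM per kb.

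A wider set of 90 genes of the same response in 7 groups was then examined, of which 82 were tested. This set, too, was chosen with earlier results of these data known. Of these, 2 rose and 2 fell at an adjusted p under 0.05, against 1.11% and 1.40% of all genes tested. The same shares of all genes stand beside the calls in each list below. A log2 fold change above 0 was found in 51 of the 82, against 49.4% of all genes, and the median was 0.04, against -0.002. Control replicate 1 was the lowest library in 39 of the 82, against 28.4% of all genes. In 16 of the 82, control replicate 2 lay above control replicate 1 beyond the counting interval, against 4.20% of all genes. Calls of single genes outside the 10 members, here and below, rest on the edgeR quasi-likelihood test alone. They were not followed gene by gene under other tests, scalings or sets of libraries.

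In the closest relatives of Egr1, control replicate 2 also lay above control replicate 1. Egr2, a zinc-finger factor of the same family, was at 7.21 and 14.2 CPM before IAA and 16.0 and 14.4 CPM after 6 h. Egr3 was at 7.51 and 17.2 CPM before IAA and 19.0 and 14.6 CPM after 6 h. Their control ratios were 1.97 (1.19 to 3.34) and 2.29 (1.42 to 3.80), on fewer than 100 counts each, and neither passed the test between conditions (adjusted p 0.263 and 0.384). Among 4 tested genes of the Egr family and its Nab corepressors, none was called, and the median log2 fold change was 0.09.

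Of 33 tested genes grouped as other primary response genes, 9 had control replicate 2 above control replicate 1 beyond the counting interval, against 4.20% of all genes tested, among them Nr4a1, an orphan nuclear receptor, at 1.62 (1.19 to 2.21), Csrnp1 at 1.58 (1.13 to 2.22) and Btg2, an antiproliferative gene, at 1.26 (1.04 to 1.54). These 3 were named after their values were seen. In this group Nfkbia, the inhibitor of NF-κB, fell from 103 and 108 CPM to 72.1 and 77.8 CPM, a log2 fold change of -0.49 ± 0.08 (SE) (adjusted p 0.000300), with control replicates that did not stand apart. The genes of this group with the highest mean CPM, not divided by length, were Mcl1, a survival factor, with a log2 fold change of -0.07, and Klf2, with -0.10 (adjusted p 0.582 and 0.452). The controls of Klf2 were apart the other way, at 0.888 (0.815 to 0.968). The group's median was 0.03.

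Among 8 tested MAP kinase phosphatases, Dusp8, which acts on stress-activated kinases, rose from 63.4 and 57.6 CPM to 84.2 and 103 CPM. Its log2 fold change was 0.63 ± 0.10 (SE) (adjusted p 0.000208). Dusp5 and Dusp16, highest in mean CPM not divided by length, had log2 fold changes of 0.13 (adjusted p 0.366) and 0.25 (adjusted p 0.0618), and the median of the group was 0.10. Dusp8 differed from Dusp1 in that its controls showed no gap in the direction of Egr1, with a ratio of 0.908.

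Among 15 tested inputs to these promoters (SRF, its cofactors, the Elk and CREB factors and their kinases), 1 rose and 1 fell. Of all genes tested 1.11% rose and 1.40% fell. The median of these inputs was 0.10. Mrtfb, an actin-regulated cofactor of SRF, fell from 737 and 791 CPM to 620 and 661 CPM, a log2 fold change of -0.26 ± 0.05 (SE) (adjusted p 0.00247). Rps6ka2, a ribosomal S6 kinase downstream of ERK, rose from 264 and 283 CPM to 321 and 316 CPM, a log2 fold change of 0.22 ± 0.06 (SE) (adjusted p 0.0355). Srf itself, singled out after its values were seen, was at 54.7 and 56.5 CPM before IAA and 67.0 and 56.8 CPM after 6 h (adjusted p 0.488).

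None of the 9 tested AP-1 partners was called (median -0.01). Atf2 and Jdp2, highest in mean CPM not divided by length, had log2 fold changes of -0.01 and 0.04 (adjusted p 0.957 and 0.828). None of the 11 tested genes of the Myc network was called (median 0.03), and its genes with the highest mean CPM, not divided by length, Mxi1 and Mnt, antagonists of Myc, had 0.14 and 0.08 (adjusted p 0.214 and 0.523). In that network control replicate 1 was the lowest library in 0 of 11 genes, against 28.4% of all genes. Of the remaining Ier genes, Ier3 had a log2 fold change of 0.59 and Ier5l of -0.22, and neither passed (adjusted p 0.217 and 0.430).

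Other lists were set beside these values for comparison. The embryonic stem cell marker Utf1, a chromatin factor of pluripotent cells, fell by 0.61 on the log2 scale (adjusted p 0.00358), while Esrrb and Tfcp2l1 had -0.02 and 0.06 (adjusted p 0.893 and 0.4999). Pax6, a neural factor among the markers of differentiated cells, was at 5.71 and 10.9 CPM before IAA and 11.8 and 13.2 CPM after 6 h, and Sox1 at 25.8 and 23.7 against 25.9 and 25.6 CPM. The low value of Pax6 in control replicate 1 moved with that of Egr1, and its part in the result was not tested. No heat shock gene of 11 tested was called, with Hsp90ab1 at -0.15 and Hspd1 at -0.14 on the log2 scale (adjusted p 0.112 and 0.226). Of 8 targets of the aryl hydrocarbon receptor, which auxin-like indoles can engage, 3 were tested and none was called, with Tiparp at 0.07 and Nqo1 at 0.17 (adjusted p 0.531 and 0.427).

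The mean profile of the 10 members over the 4 libraries, in log2 CPM centred on each gene's mean, was -0.37 and 0.06 for the controls against 0.25 and 0.07 with IAA. The 5 genes nearest to it, out of 9560 with a mean of at least 10 CPM, were Mir155hg, Higd1a, Tspyl1, Col5a1 and 4833407H14Rik, at root mean square distances of 0.02 to 0.03. No member was as near, since their own distances ran from 0.09 for Jun to 0.34 for Fosb. With 4 libraries, such likeness is a description only.

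**Figure D5:**
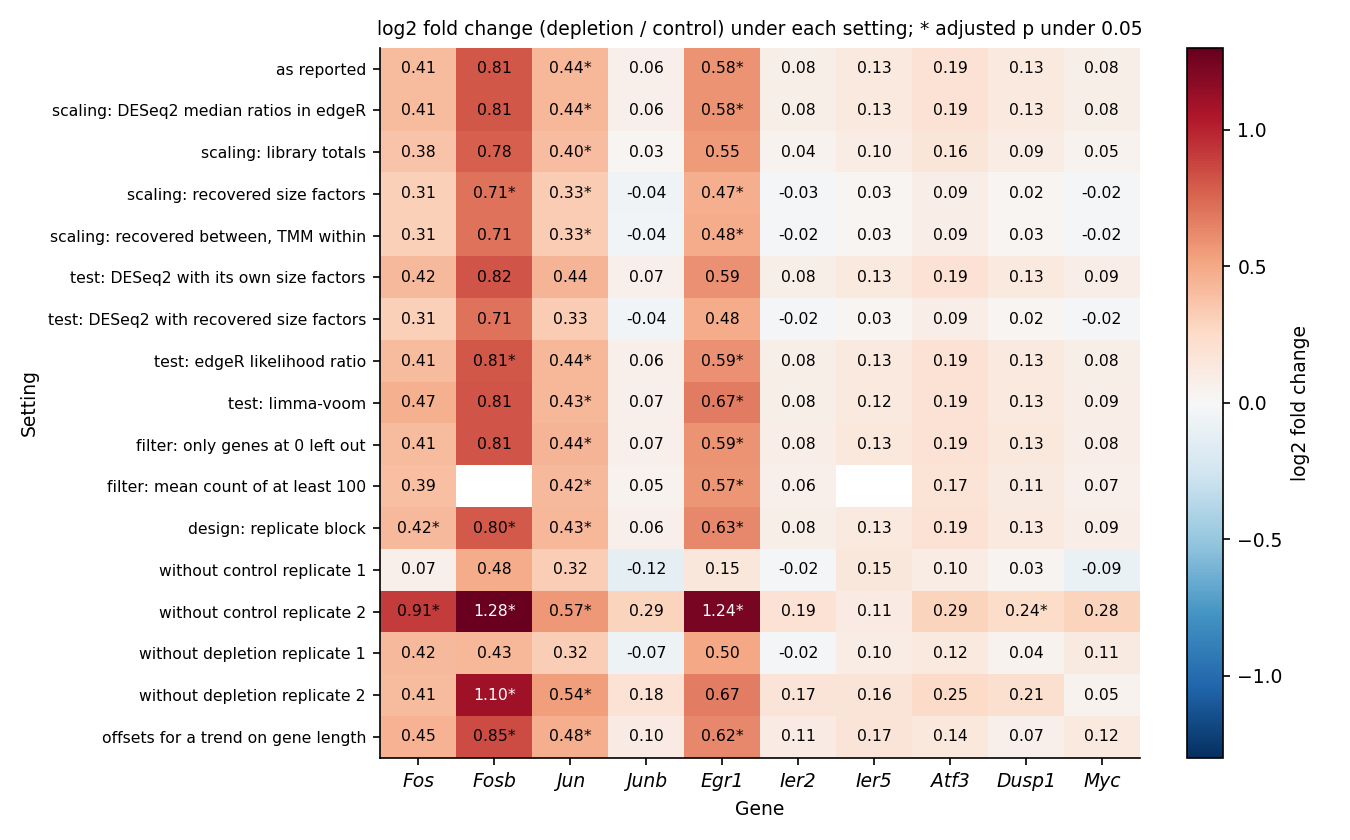
Log2 fold change of each immediate-early gene under the fit as reported (top row) and under 16 other settings, on a colour scale from blue (lower after depletion) to red (higher), with an asterisk where the adjusted p is under 0.05 and white cells for genes that a stricter filter left out. The row without control replicate 1 is the palest, with 0.15 for Egr1 and 0.07 for Fos, and the row without control replicate 2 is the darkest, with 1.24 and 0.91.

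The count of members past the threshold moved with the libraries and the test. It was 5 without control replicate 2 (Egr1, Fos, Jun, Fosb and Dusp1) and 0 without control replicate 1. It was 0 without depletion replicate 1 and 2 (Jun and Fosb) without depletion replicate 2. In these fits the condition left with 1 library was assumed to vary like the other. Calls over all genes also moved between these fits. They were fewer in both directions when either depletion library was dropped than when every library was kept. The members' counts in these fits can therefore not be read alone. DESeq2 called 0 of the 10 members with its own size factors, where 14 of the 11853 genes were higher and 61 lower. In edgeR 4 of the 10 members were higher at an unadjusted p under 0.05, against 8.53% of all genes tested.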

How the data were processed

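PRO-seq was measured in 4 libraries, 2 control and 2 depletion, grouped by their labelled treatment. The deposited counts are whole numbers of reads per gene and not normalized. According to their methods the authors separated the molecular identifiers, trimmed with cutadapt 1.18, mapped to mm10 with Bowtie 1.2.2 and kept uniquely placed reads. They collapsed reads by identifier and counted RNA 3′ ends, on the strand of transcription, over genes with CAGE-corrected starts. The authors also deposited a DESeq2 table with a mean normalized signal, fold changes and p-values, of which only that signal was used, to recover their 4 size factors. These gave back the signal of all genes within a relative tolerance of 1e-06. The study describes a Drosophila spike-in factor shared by the replicates of a condition, but those recovered here were unequal within a condition (0.699 and 0.740 for the controls, 1.32 and 1.24 for depletion), so what they were made from is not known here.

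Counts were filtered with filterByExpr (minimum count 10, minimum total 15), scaled with TMM, and compared with edgeR 4.0.16 in R 4.3.3 (two-sided quasi-likelihood test of condition alone), and p-values were adjusted by Benjamini-Hochberg over all 11853 genes. Replicate ratios carry exact Clopper-Pearson intervals at 95%, which cover counting error only. The chi-square per degree of freedom between replicates was 1.90 for the controls and 1.51 for the depletion libraries, so they were kept as separate samples. Alternatives were DESeq2 1.42.0, limma-voom (limma 3.58.1), a likelihood ratio test, other scalings and filters, a replicate block, offsets for gene length and leaving out each library. Positions came from RefSeq (GRCm38.p6, the assembly of mm10) and GENCODE M21, which matched 12474 of the 12486 genes by identifier.

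The members and the lists were chosen with earlier results of these data known. Named genes were the members, Zfp574, from each list the called genes and the 2 with the highest mean CPM, and the 5 nearest profiles. Genes named outside this rule are marked in the text.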

Additional observations from a re-analysis of the deposited data

How the results depend on the processing

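The 16 other settings gave 158 values for single members, of which 125 kept their direction and their side of the threshold. Of 128 counts and medians, 89 moved little.

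With library totals Egr1 lost its call (0.55), 1 member was called, 64 genes were higher, and the median of all genes was -0.036. With the recovered size factors Fosb passed (0.71), while Myc (-0.023), Ier2 (-0.025) and Junb (-0.042) turned negative, with 698 genes lower, 49 higher and a median of -0.11. These scalings shift all genes by construction. Using only their ratio across conditions, with TMM inside each, Myc was -0.022, Ier2 -0.023 and Junb -0.040, with 749 genes lower, 42 higher and a median of -0.10. DESeq2 with its own factors called 0 members (Egr1 0.59, Jun 0.44), with 61 genes lower and 14 higher. DESeq2 with the recovered factors called 0 members (Egr1 0.48, Jun 0.33), with Myc at -0.020, Ier2 at -0.025 and Junb at -0.040, 110 genes lower, 3 higher and a median of -0.11. The likelihood ratio test called Fosb (0.81) and 1 gene higher by 2-fold. With limma-voom the median of all genes was -0.0036. A mean count of at least 100 left 8 genes lower by 2-fold, out of 38 as reported, since fewer genes were tested. Offsets for gene length let Fosb pass (0.85), with 52 genes higher and a median of -0.029. Where no construction is named, the cause was not tested.

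The correlation over genes of replicate 2 minus replicate 1 across conditions was 0.03. These differences include counting error, and whether libraries of the same replicate number were handled together was not tested. With the replicate block 4 members were called, Fos (0.42) and Fosb (0.80) among them, with 300 genes lower, 366 higher and 1 higher by 2-fold. The block left little from which to estimate spread. Egr1 had a standard error of 0.05 in this fit, against 0.15 as reported, so its calls are not relied on.

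Leaving out 1 library in turn moved genes lower from 75 to 226 and genes higher from 21 to 271, against 166 and 132 with all libraries. Genes lower by 2-fold ranged from 31 to 44 and genes higher by 2-fold from 1 to 8, members called from 0 to 5, members above 0 from 7 to 10, their median from 0.083 to 0.29, and that of all genes from -0.0023 to 0.0034. The ranges were 0.066 to 0.91 for Fos, 0.43 to 1.28 for Fosb, 0.32 to 0.57 for Jun, -0.12 to 0.29 for Junb, 0.15 to 1.24 for Egr1, -0.015 to 0.19 for Ier2, 0.10 to 0.29 for Atf3, 0.098 to 0.16 for Ier5, 0.033 to 0.24 for Dusp1 and -0.086 to 0.28 for Myc. At most 50 counts per control library for Fosb and Ier5 limit what these 2 genes can show.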
